A study of Mus musculus with 4 samples.

Results

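A set of 10 genes of mitosis and cell proliferation, *Mki67*, *Anln*, *Aurka*, *Kif18a*, *Nusap1*, *Gtse1*, *Kpna2*, *Stmn1*, *Lmnb1* and *Cks2*, was followed in mRNA sequencing of splenic CD4+ T cells from lupus-prone MRL/lpr and control B6 mice. They are 10 of the 440 genes in the deposited table of higher mRNAs and of 652 genes in both mRNA tables. The genes were chosen by name from that table with their MRL/lpr and B6 values known, so their higher level in MRL/lpr is how they were found and is given as a description, with no test. Each strain was represented by 1 mRNA library and 1 small RNA library, all from female mice of 16 weeks. The sample labels name 1 mouse of each strain, although the series description speaks of 2 B6 mice. The B6 mouse was C57BL/6J, and the MRL/lpr mouse is labelled MRL/lpr-Tnfrsf6lpr, a lupus model that carries the *lpr* mutation of the death receptor gene *Fas* on the MRL background. No MRL mouse without *lpr* and no B6 mouse with *lpr* was sequenced, so the mutation, the background, the disease and the individual mouse cannot be told apart. CD4+ T cells were obtained by bead depletion of the remaining spleen cells. None of the 11 CD4 T cell markers examined stands in either table, which hold only genes that differ by at least 2-fold and are predicted targets of a miRNA listed as changed in the opposite direction. The purity of the cells was therefore not testable from these tables. Levels are read as FPKM, fragments scaled to transcript length and library size, a unit that the tables do not name. A single library stands for each strain, so no spread between mice is known and no difference below was tested.

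A dividing cell copies its DNA, condenses its chromosomes, takes apart the nuclear envelope, builds a spindle of microtubules that pulls the copies apart, and finally pinches in at its middle. Most of the machinery of these steps is transcribed mainly in cycling cells, late in the cycle, whereas naive T cells of the spleen rest outside it. Activated T cells enter the cycle, and *lpr* mice, which lack functional Fas, accumulate lymphocytes. In a bulk library, more cells in cycle and more mRNA per cycling cell cannot be told apart.

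Every one of the 10 genes was measured well above the low end of the table, and their levels spread over a wide range. In B6 they ran from 0.752 FPKM for *Anln* to 48.3 FPKM for *Stmn1*, and in MRL/lpr from 4.73 FPKM for *Kif18a* to 166 FPKM for *Stmn1*. The median level was 7.81 FPKM in the B6 library, compared with 39.3 in the MRL/lpr library. Over all 440 higher mRNAs the medians were 0.422 and 2.23 FPKM, and all 10 genes lay above both. Summed over the genes, the level was 135 FPKM in B6 against 537 FPKM in MRL/lpr, of which *Stmn1*, *Cks2* and *Mki67* made up 65.0% in MRL/lpr.

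**Figure D1:**
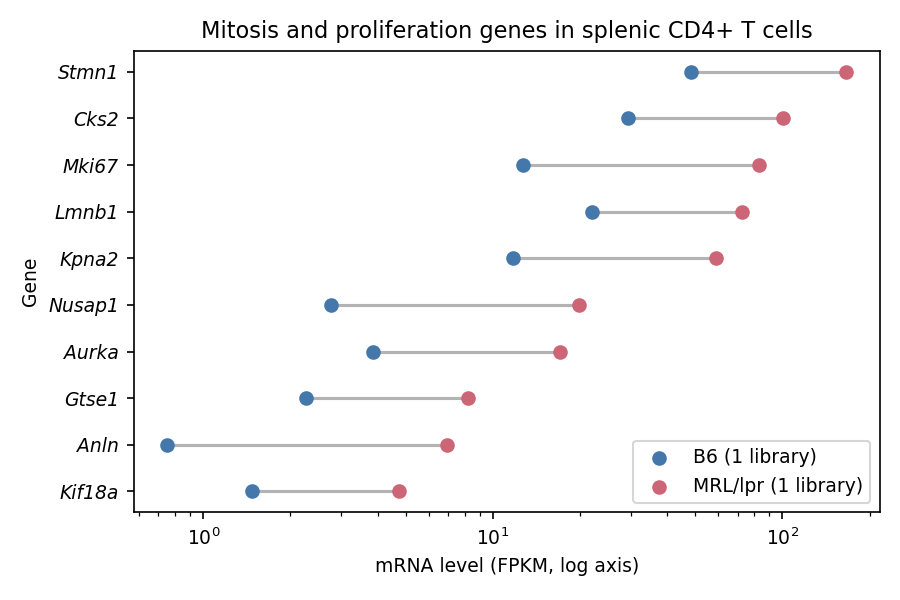
Level of each gene (FPKM, logarithmic axis) in the B6 library and the MRL/lpr library, joined by a line, with genes ordered by their level in MRL/lpr. *Stmn1* is highest in both libraries, while *Anln* is lowest in B6 and *Kif18a* is lowest in MRL/lpr.

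*Mki67* encodes Ki-67, a protein that coats mitotic chromosomes and is the standard marker of cycling cells. On chromosome 7, it had 12.7 FPKM in B6 against 83.1 FPKM in MRL/lpr, a ratio of 6.54. It ranked 24 by level in B6 and 9 in MRL/lpr among the higher mRNAs, the widest move up this order of the genes above 10 FPKM in B6.

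Genes of the spindle and its microtubules made up the largest group, and they differed among themselves more in level than in ratio. *Nusap1* encodes a protein that bundles and anchors spindle microtubules, and its mRNA had 2.77 FPKM in B6 against 19.9 FPKM in MRL/lpr, a ratio of 7.19. *Aurka* encodes Aurora A, the kinase that matures centrosomes and drives spindle assembly. It had 3.85 FPKM in B6 against 17.0 FPKM in MRL/lpr, a ratio of 4.42. *Gtse1* encodes a microtubule-associated protein of G2 and mitosis that, in human cells, also binds p53. Its levels were 2.26 and 8.22 FPKM, a ratio of 3.64. *Kif18a*, the kinesin motor that damps the swinging of chromosomes at the spindle equator, had 1.48 FPKM in B6 against 4.73 FPKM in MRL/lpr, and its ratio of 3.20 was the lowest of the 10 genes. *Nusap1*, *Aurka* and *Kif18a* all lie on chromosome 2, and *Gtse1* on chromosome 15.

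*Stmn1* encodes stathmin, which binds free tubulin, destabilises microtubules and is switched off by phosphorylation when cells enter mitosis. Located on chromosome 4, it went from 48.3 FPKM in B6 to 166 FPKM in MRL/lpr, a ratio of 3.43. It ranked 5 of the 440 genes by B6 level and 4 by MRL/lpr level. The difference between the libraries, 117 FPKM, ranked 4 in the table, although its ratio ranked 252.

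*Anln* encodes anillin, the scaffold of the contractile ring that divides the cell at cytokinesis. The gene, on chromosome 9, was the scarcest of the 10 in B6, at 0.752 FPKM, and had 6.94 FPKM in MRL/lpr. The ratio of 9.23 was the highest of the 10 genes. It was also the one that depended most on the low B6 value, since adding 1 FPKM to both values brings it to 4.53.

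*Cks2*, on chromosome 13, encodes a small subunit that docks cyclin-dependent kinases onto their substrates. Its mRNA had 29.4 FPKM in B6 against 100.5 FPKM in MRL/lpr, a ratio of 3.42 that was nearly that of *Stmn1*. *Kpna2* on chromosome 11 encodes an importin alpha, an adaptor that carries proteins into the nucleus. It had 11.8 FPKM in B6 against 58.8 FPKM in MRL/lpr, a ratio of 4.99. *Lmnb1*, on chromosome 18, encodes lamin B1, a filament protein that lines the inner nuclear membrane. It had 22.0 FPKM in B6 against 72.7 FPKM in MRL/lpr, a ratio of 3.31.

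By ratio the genes stood near the middle of the table, whose lower limit is 2-fold. Their ratios ran from 3.20 to 9.23 with a median of 4.03, against 3.98 over all 440 genes, and their ranks ran from 63 (*Anln*) to 277 (*Kif18a*). At least 4-fold higher were 5 of the 10, *Anln*, *Nusap1*, *Mki67*, *Kpna2* and *Aurka*, as were 49.8% of the table. All 10 were at least 3-fold higher, as were 67% of the table, and 3 were at least 5-fold higher, as were 35.9%. Higher in MRL/lpr were 67.5% of the genes of both mRNA tables, so the direction alone is also the common one.

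How the genes stood by ratio depended on the minimum level set for the mRNAs beside them. The 276 higher mRNAs with at least 1 FPKM in MRL/lpr include all 10 genes, with a median ratio of 4.03 against 3.83 for the others, and 5 of the 10 lay above that value. *Anln*, at 0.752 FPKM in B6, passed this limit through its MRL/lpr level alone. Of the 106 higher mRNAs with at least 10 FPKM in MRL/lpr, 7 are of the 10 genes. Their median ratio was 4.42, against 3.06 for the others, and all 7 lay above that value. *Nusap1* and *Aurka*, at 2.77 and 3.85 FPKM in B6, entered this group through their MRL/lpr level alone. Of the 31 higher mRNAs with at least 10 FPKM in B6, 5 are of the 10 genes, with a median ratio of 3.43 against 2.63 for the others. With at least 1 FPKM in both libraries, 9 of the 10 remained among 169 genes, where *Nusap1* ranked 17, *Mki67* 22 and *Kpna2* 34 by ratio. The rest of the 9 ranked from 46 (*Aurka*) to 76 (*Kif18a*). At least 50 FPKM in MRL/lpr was reached by 21 of the 440 mRNAs, 5 of them *Stmn1*, *Cks2*, *Mki67*, *Lmnb1* and *Kpna2*. In B6, 4 of the 440 reached 50 FPKM and 0 of the 10 genes did, so these 5 passed through their MRL/lpr level alone. Since the genes were picked with these values in view, these counts describe the choice and are no evidence about mitotic genes as a class.

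**Figure D2:**
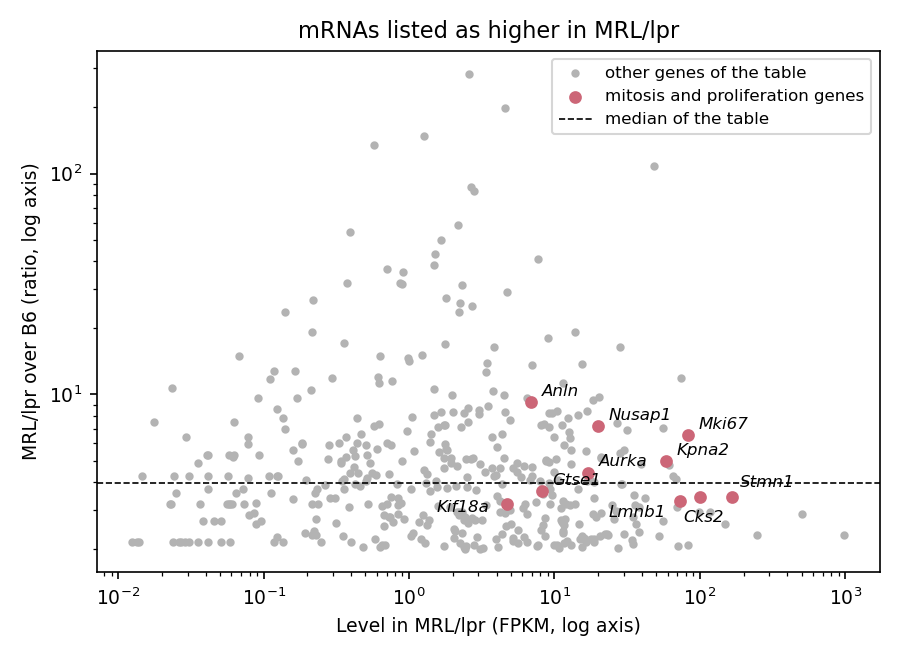
MRL/lpr over B6 ratio (logarithmic axis) against the level in MRL/lpr (FPKM, logarithmic axis) for all 440 mRNAs listed as higher in MRL/lpr, with the 10 genes named and the table's median ratio of 3.98 as a dashed line. The genes lie toward the right of the cloud, at 4.73 FPKM or more in MRL/lpr, with 5 above and 5 below the dashed line.

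The genes were named for their known function, so the annotation they share overlaps with the choice. In the Gene Ontology terms that the deposited table attaches to its genes, *Aurka*, *Gtse1*, *Kif18a*, *Nusap1* and *Stmn1* carry the microtubule term, which 12 of the 440 genes carry. *Anln*, *Aurka*, *Cks2* and *Nusap1* carry the cell division term, also on 12 genes. *Mki67*, *Kpna2* and *Lmnb1* carry neither. The 8 other genes with the cell division term had a median ratio of 3.63 and a median of 5.39 FPKM in MRL/lpr, and the 4 named here had 5.81 and 18.5 FPKM. Since the 4 were chosen with these values known, the contrast describes the choice. Among the 8 were *Ccdc99*, named Spindly in later usage, a kinetochore protein that recruits dynein, at 1.30 FPKM in B6 against 6.20 FPKM in MRL/lpr, and *Chek2*, a DNA damage checkpoint kinase, at 1.57 and 4.57 FPKM. Both were picked out after their values had been seen.

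Other genes of the cell cycle also stand in the table of higher mRNAs, and how many depends on how they are counted. The cell cycle term is attached to 18 of the 440, of which 14 are not among the 10 genes and had a median ratio of 3.12. Of all 652 genes in both mRNA tables, 67.5% were higher in MRL/lpr. Of 242 further genes in 9 lists of the cell cycle, 8 were in the table of higher mRNAs and none in the table of lower mRNAs. Not one came from the lists of spindle kinases and checkpoint (16 genes), kinesins and microtubule regulators (28), kinetochore and centromere (36), cytokinesis (14), condensin, cohesin and chromosome structure (25), or nuclear lamina and nuclear import (21). These lists are short and leave genes out. The table does hold the kinesin *Kif24* (0.374 FPKM in B6, 1.94 FPKM in MRL/lpr), the checkpoint ATPase *Trip13* (1.12 and 5.20 FPKM) and the kinetochore gene *Ccdc99* given above, all picked after their values had been seen. A gene that is missing here may be unchanged, may differ by less than 2-fold, or may have no listed predicted miRNA, so absence carries no information on its level.

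The genes found through the lists belong to the control of the cycle and to S phase. *Ccnf*, a cyclin that directs protein degradation in G2, had 1.16 FPKM in B6 against 9.58 FPKM in MRL/lpr, a ratio of 8.28. *Mybl2*, a transcription factor that switches on mitotic genes together with the MuvB complex, had 1.96 and 11.6 FPKM, a ratio of 5.91. *Tfdp1*, the dimerisation partner of E2F factors, had 22.6 and 70.1 FPKM, and *Ccne2*, a cyclin of the entry into S phase, had 1.66 and 6.84 FPKM. *Mybl1*, a relative of *Mybl2*, stayed below 1 FPKM in both libraries, at 0.163 and 0.524. From the S phase list came *Fen1*, a flap nuclease of DNA replication, at 11.4 and 36.0 FPKM, and *Chek1*, the replication checkpoint kinase, at 1.82 and 4.61 FPKM. The quiescence list, made with earlier results of these data known, has 18 genes. Of all 652 genes in both mRNA tables, 212 were lower in MRL/lpr. Of the 18, 4 were listed as lower in MRL/lpr and 0 as higher. These were *Tcf7*, *Lef1* and *Foxo1*, transcription factors of resting T cells, and *S1pr1*, the receptor for exit from lymphoid organs, which were between 3.01-fold (*Tcf7*) and 5.99-fold (*Lef1*) higher in B6.

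Markers of other cells that could divide in a spleen, or come along in the preparation, were also looked up. Of 17 myeloid markers only *Itgam* was listed, at 1.71 FPKM in B6 against 28.1 FPKM in MRL/lpr. Myeloid genes outside that list were higher as well, among them *Cd68* (7.28 and 28.7 FPKM), *Cd177* (0.449 and 48.4 FPKM), *Clec4e* (0.187 and 7.66 FPKM) and *Msr1* (0.0230 and 4.56 FPKM), which were picked after their values had been seen. Of 17 erythroid markers only *Tfrc*, the transferrin receptor that dividing T cells also make, was listed, at 15.9 and 37.9 FPKM. None of the 12 B and plasma cell markers was listed, and of 11 CD8 T and NK cell markers only *Klrd1*, which was lower in MRL/lpr. In the small RNA libraries the red blood cell miRNAs miR-451a and miR-144-3p went from 0.327 and 0.387 RPM, reads scaled to the trimmed reads of the library, in the B6 mouse to 12.4 and 37.7 RPM in the MRL/lpr mouse. The myeloid miR-223-3p went from 7.94 to 215 RPM. Red cell precursors divide rapidly, and these 3 miRNAs were picked after their values had been seen. No marker list was made for T cells that lack CD4 and CD8, which the paper describes as more numerous in MRL/lpr than in B6 mice. The part of these T cells, or of erythroid or myeloid cells, in the levels of the 10 genes was not tested.

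Each gene is in the table because a prediction list pairs it with at least 1 miRNA that was lower in MRL/lpr. A miRNA guides the Argonaute protein to mRNAs that pair with its seed, bases 2 to 8, and lowers their level or their translation, so the tables set opposite changes side by side. The 10 genes are paired with 7 of the 45 lower miRNAs. Their sequences, as deposited and written as DNA 5′ to 3′ with the seed in capitals, show how far the predictions rest on separate seeds.
miR-466d-3p: tATACATAcacgcacacatag
miR-466b-3p: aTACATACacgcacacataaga
miR-467e-5p: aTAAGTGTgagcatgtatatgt
miR-874-3p: cTGCCCTGgcccgagggaccga
miR-10b-5p: tACCCTGTagaaccgaatttgtg
miR-26b-5p: tTCAAGTAattcaggataggt
miR-744-5p: tGCGGGGCtagggctaacagca
The 7 seeds all differ, but those of miR-466d-3p and miR-466b-3p are the same repeat shifted by 1 base: from base 2 on, miR-466d-3p shares 19 bases with the start of miR-466b-3p. The sequence of miR-466b-3p is also listed under the names miR-466c-3p and miR-466p-3p with the same reads, so these are 1 measurement under 3 names. In RefSeq (GRCm38.p6) miR-10b-5p lies at chr2:74726074-74726096 (plus strand), miR-26b-5p at chr1:74394324-74394344 (plus strand) and miR-744-5p at chr11:65734799-65734820 (minus strand). Reads of near-identical miRNAs may have been divided between them by the counting.

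Most of the paired miRNAs were scarce. Of the 7, 6 were under 100 RPM in B6, while 18 of the 45 lower miRNAs reached that level. MiR-466d-3p, paired with *Anln* and *Aurka*, was counted 90 times (2.68 RPM) in B6 but 17 times (0.567 RPM) in MRL/lpr, and was the scarcest of the 45 in B6. It was 4.72-fold higher in B6, with an exact Clopper-Pearson 95% interval of 2.79 to 8.45 that covers counting error only. MiR-466b-3p, paired with *Gtse1* and *Lmnb1*, had 328 and 112 reads and was 2.61-fold higher in B6. MiR-467e-5p, the other partner of *Gtse1*, had 532 and 122 reads and was 3.89-fold higher. *Nusap1* is paired with miR-874-3p, which had 140 reads in B6 and 51 in MRL/lpr, a 2.45-fold difference (95% interval 1.76 to 3.44).

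The more abundant partners differed least between the strains. MiR-26b-5p, paired with *Kpna2* and *Cks2*, had 524 RPM in B6 against 255 RPM in MRL/lpr and was 2.05-fold higher in B6 (95% interval from just under 2 to 2.11). MiR-744-5p, paired with *Mki67*, had 59.6 and 29.4 RPM and was 2.02-fold higher, an interval of 1.87 to 2.19 that reaches below the 2-fold limit of the list. MiR-10b-5p, paired with *Stmn1* and *Kif18a*, had 17.7 and 7.64 RPM and was 2.32-fold higher. *Mki67*, with a ratio of 6.54, is thus paired with the miRNA that differed least of the 7. *Anln*, with a ratio of 9.23, is paired with the one that differed most, as is *Aurka*, with a ratio of 4.42. Counting error leaves both places in this order unresolved. The interval of miR-744-5p overlaps that of miR-26b-5p, and the interval of miR-466d-3p overlaps that of miR-467e-5p (3.19 to 4.77).

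**Figure D3:**
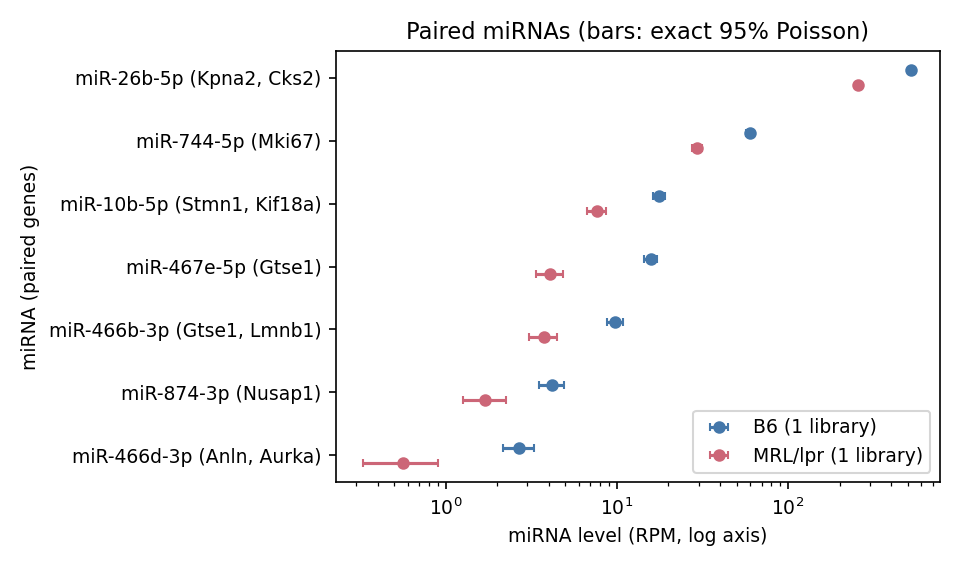
Level (RPM, logarithmic axis) of the 7 miRNAs paired with the genes in B6 and MRL/lpr, with the paired genes in brackets and exact 95% Poisson intervals of the reads as bars. MiR-26b-5p stands apart at 524 RPM in B6, and the other 6 lie below 60 RPM in both libraries.

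The pairings were few per gene. All of the genes except *Gtse1* are paired with a single miRNA, as are 324 (73.6%) of the 440. None is paired with a member of the let-7 family, of which 6 were lower in MRL/lpr and which are paired with 22 genes of the table. MiR-466d-3p is paired with 46 higher mRNAs in all, and their median ratio was 3.33. MiR-744-5p is paired with 6, among them *Mki67*, with a median ratio of 5.17. The table gives neither a site nor a score for a pair, and whether the miRNAs act on these mRNAs was not tested.

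Genes of mitosis are commonly controlled through their promoters, and those sequences were examined for elements that the genes share. Whether such elements bear on the levels in these libraries was not tested. The cell cycle homology region, TTTGAA or TTTAAA, is bound by the MuvB complex, which represses such genes in resting cells and activates them in G2 together with B-MYB, the product of *Mybl2*. CCAAT boxes, bound by NF-Y, often lie a short way upstream of it. Promoters of 8 of the 10 genes were found in a RefSeq table of GRCm38.p6 that holds 250 bases before and 50 bases from each annotated start, and both strands were searched. TTTGAA was present in 4 of the 8 (*Mki67*, *Aurka*, *Anln* and *Kpna2*) and in 17.9% of all 32851 promoters. TTTAAA, which reads the same on both strands, was present in 3 (*Aurka*, *Kpna2* and *Gtse1*) and in 13.2% of all. CCAAT was present in 5 (*Mki67*, *Aurka*, *Kpna2*, *Gtse1* and *Cks2*) and in 37.4% of all. An E2F motif, GGCGGGAA, was in none of the 8 and in 2.19% of all promoters. *Nusap1* and *Kif18a* had no match to any of the 4 motifs in this window.

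In *Mki67*, *Aurka*, *Kpna2* and *Gtse1* a CCAAT box stands a short distance before a cell cycle homology region on the same strand. The stretches that hold both are printed 5′ to 3′ on the strand of the gene, with every match to the 3 motifs in capitals, on either strand (ATTGG and TTCAAA are the reverse forms).
*Mki67* at chr7:135716430-135716579, minus strand: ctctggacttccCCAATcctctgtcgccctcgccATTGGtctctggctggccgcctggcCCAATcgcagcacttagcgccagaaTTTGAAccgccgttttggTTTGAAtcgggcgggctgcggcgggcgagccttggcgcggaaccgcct
*Aurka* at chr2:172370521-172370650, minus strand: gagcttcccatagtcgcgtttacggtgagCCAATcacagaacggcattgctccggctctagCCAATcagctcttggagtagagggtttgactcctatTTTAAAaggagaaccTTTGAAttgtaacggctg
*Kpna2* at chr11:106999476-106999605, minus strand: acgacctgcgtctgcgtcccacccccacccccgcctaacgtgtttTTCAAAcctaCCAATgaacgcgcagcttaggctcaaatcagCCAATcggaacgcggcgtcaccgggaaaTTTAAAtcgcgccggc
*Gtse1* at chr15:85859627-85859756, plus strand: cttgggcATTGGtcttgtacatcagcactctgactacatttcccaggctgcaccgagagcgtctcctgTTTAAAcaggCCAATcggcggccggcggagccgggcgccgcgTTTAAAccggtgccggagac
From the first base of the CCAAT box to the first base of the next TTTGAA or TTTAAA there were 25 bases in *Mki67*, 36 in *Aurka*, 28 in *Kpna2* and 32 in *Gtse1*. A distance of 20 to 40 bases on the gene's strand, a range set after these 4 had been seen, occurs in 181 (0.551%) of the 32851 promoters. Because the range was fitted to the 4, that share is no fair background for them. With no limit on distance or strand, either form together with CCAAT occurs in 10.7% of the promoters and in these 4 of the 8 genes. In *Aurka*, *Kpna2* and *Gtse1* the pair spans or follows the annotated start, and in *Mki67* it lies upstream, with its CCAAT box at position -141. These positions depend on the start used. The RefSeq genes *Mki67*, *Aurka* and *Gtse1* reach further upstream than that start, to chr7:135716450, chr2:172370886 and chr15:85859691. *Gtse1* has a further annotated start, whose window holds the same pair. Several promoters of the table belong to 1 gene, so they are not independent, and a match is a description of the sequence and no proof of binding.

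**Figure D4:**
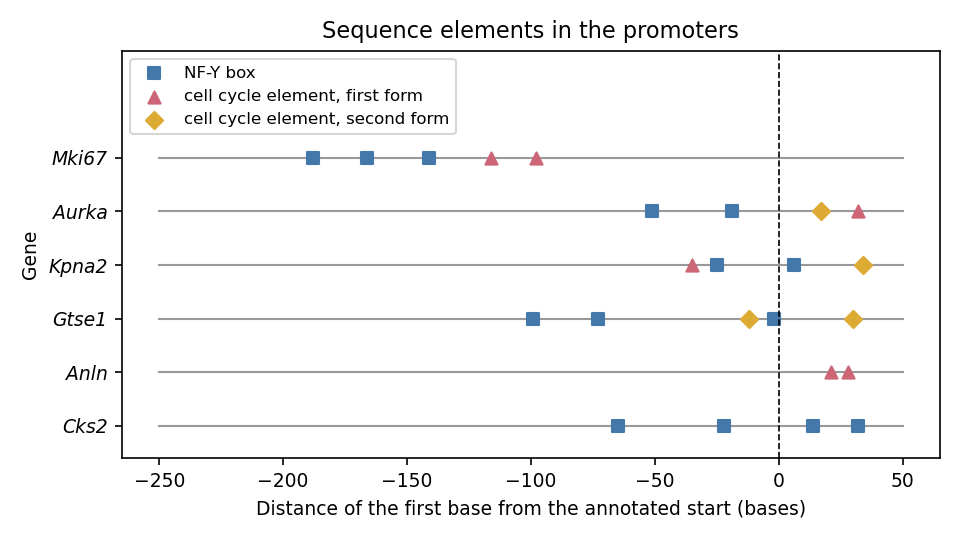
Position of the first base of each match relative to the annotated start (0, dashed line) in the promoters of the 6 genes with a match, over 250 bases before and 50 bases from the start, with the first start used for *Gtse1*. Squares are CCAAT boxes (NF-Y box), triangles TTTGAA and diamonds TTTAAA. In the upper 4 genes a square stands 25 to 36 bases to the left of a triangle or diamond.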

How the data were processed

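For each strain, 1 mRNA library and 1 small RNA library were made from splenic CD4+ T cells. For mRNAs, the authors deposited values called raw in tables whose column names follow Cuffdiff, so they were read as FPKM. Below 0.1 in both libraries, the ratios of 63 of 74 genes were ratios of small whole numbers (sum at most 40, within 3e-05) after division by 1.07, but no mRNA depth is given and no counting interval was made. For miRNAs, the authors deposited read counts, from 33634335 (B6) and 29971024 (MRL/lpr) trimmed reads, and RPM, which recomputes from the reads and the trimmed total. The listed miRNAs have at least 100 reads over both libraries. The authors' fold, p-value and q-value columns were not used. The aligner and the miRNA annotation were not given in the sources used here.

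Ratios, ranks, counts and exact intervals at 95% were computed with Python 3.11.15, NumPy 2.4.6, pandas 2.3.3 and SciPy 1.17.1. Plots were drawn in Matplotlib 3.10.9. In a simulation of 114 miRNA counts with known folds, the interval contained the known fold in 95.0%. That checks only how the interval is calculated. The interval takes no account of the spread between mice or of the listing of miRNAs by a 2-fold limit. The genes and lists were chosen with earlier results of these data known. Named are the 10 genes, their paired miRNAs, list genes in the tables, and those marked as picked afterwards. A further listed gene is not reported here. All 10 genes matched RefSeq (GRCm38.p6) by gene ID, which gave the chromosomes. A planned search of protein sequences was not run. Alternatives were added values, minimum levels, other folds and scaling to miRNA totals. No test was made, since each group holds 1 library.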

Additional observations from a re-analysis of the deposited data

How the results depend on the processing

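Each value rests on 1 library per strain, and depth limits the scarce miRNAs most. No paired analysis was possible because only 1 library was made per strain. With 10 FPKM added to both values, which shrinks ratios of scarce mRNAs by construction, the lowest ratio of the 10 genes went from 3.20 to 1.28, their median log2 ratio fell to 1.30, while that of all 440 genes fell from 1.99 to 0.20, and the number at least 4-fold higher from 5 to 1. At 3-fold there were 10 (67% of the 440) and at 5-fold 3 (35.9%). With 1 FPKM added the median was 1.82 (0.94 over all 440). Of the 7 paired miRNAs, 1 had at least 100 RPM in either library and 1 differed at least 4-fold. Scaled to the miRNA totals, the 7 ratios of MRL/lpr over B6 ran from 0.176 to 0.411, and 3 left their counting interval. With 10 RPM added, 6 of the 7 left it, at 0.545 to 0.834. Of single ratios of the genes, 1 moved by more than 1.5 times with 1 FPKM added and 7 with 10 FPKM added. Adding an equal value to both libraries cannot turn a direction.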
